A study of Mus musculus with 8 samples.

Results

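The Niban family has 3 members in the mouse, Fam129a, Fam129b and Fam129c, named Niban1, Niban2 and Niban3 in newer gene catalogues. They were followed here in PER-M60, a mouse leukaemia cell line, by RNA sequencing of 4 cultures grown in control medium and 4 grown in osteoclast-conditioned medium (OCM), that is, medium taken from osteoclasts, the cells that resorb bone. The members were chosen by mapping the Ensembl gene IDs of the count table to these 3 symbols in GENCODE M21 (Ensembl 96), which gave 3 of the 21859 gene IDs listed. All 3 passed the filter on low counts, which left 10729 genes in the analysis. The family was proposed with the comparison of these media known, so the differences of the members are given as descriptions, and nothing is read from their calls in the fit over all genes. The labels give no further treatment or genotype, do not say how the control medium was made, and do not say whether the cultures of a medium were started separately. All results are from 1 cell line.

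Niban proteins are cytoplasmic and membrane-associated proteins with a pleckstrin homology domain, a fold that binds membrane lipids or other proteins. Niban1 is known as a stress-inducible gene that is raised through the transcription factor ATF4 when amino acids run short or the endoplasmic reticulum is stressed, and it has been reported to affect phosphorylation of the initiation factor eIF2alpha, of S6 kinase and of the 4E-BP repressor of translation, and to act on p53 through nucleophosmin and MDM2. Niban2 is a substrate of the RAF to ERK kinase cascade and has been reported to bind KEAP1, the inhibitor of the antioxidant factor NRF2. Niban3, also called BCNP1, is found mainly in B lymphocytes.

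The labels call the cells leukaemia cells. All 10 B lineage markers examined were detected above the filter, and their summed level was 4511 to 4564 normalised CPM in control medium and 4709 to 4776 in OCM. CPM are counts divided by the scaled library size in units of 1e+06. Of 10 osteoclast markers, Ocstamp and Dcstamp had 0 counts in all samples and only Acp5 and Nfatc1 passed the filter. The summed osteoclast markers were 114 to 123 CPM in control medium and 129 to 134 in OCM. Ctsk, the cathepsin that defines osteoclasts, had 17 counts over all 8 samples, while Nfatc1, a transcription factor that B cells also use, was higher in OCM (log2 fold change 0.15, SE 0.03, edgeR adjusted p = 0.000806). Of 8 macrophage and monocyte markers, Cd14 and Itgam were at 0 and 3 passed the filter, with sums of 20.8 to 22.2 and 21.5 to 25.2 CPM. Among the macrophage markers, Lyz2 (lysozyme) was higher in OCM, by a log2 fold change of 0.40 (standard error 0.12, edgeR adjusted p = 0.0119). Of 7 T cell markers, Cd3g and Cd8a were at 0, and Lck and Cd5 passed the filter, the sums being 134 to 136 and 135 to 139 CPM. None of the 6 granulocyte markers passed, with sums of at most 0.712 CPM. Genes listed at 0 in every culture include G6pdx, which most cells use, so a 0 alone is not read as absence of a cell type. The part of other cells in the family's levels was not tested. Total counts per sample ran from 15391754 to 21637966. Control replicate 2 and OCM replicate 4 stood apart from the other cultures of their media. In a comparison of counts over genes, chi-square per degree of freedom was 3.37 to 5.26 for pairs with control replicate 2 and 1.78 to 2.50 for the other control pairs. It was 2.60 to 2.83 for pairs with OCM replicate 4 and 1.38 to 1.58 for the other OCM pairs.

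The members lie on different chromosomes of the mouse genome (GRCm38, also called mm10), each on the plus strand. Fam129a (ENSMUSG00000026483) spans 151571186 to 151721939 on chromosome 1, with 5 annotated transcripts and 7380 exon bases. Fam129b (ENSMUSG00000026796) spans 32876114 to 32925254 on chromosome 2, with 6 transcripts and 4672 exon bases. Fam129c (ENSMUSG00000043243) spans 71597648 to 71607936 on chromosome 8, with 8 transcripts and 3560 exon bases. The genes are not equally separable from their neighbours. Fam129a shares no exon bases with another annotated gene. Fam129b shares 39 exon bases with Lrsam1 on the opposite strand, 0.835% of its exon bases. Fam129c shares 776 exon bases, 21.8% of its total, with Pgls on the same strand, so the counts of Fam129c depend on how reads in the shared part were assigned, and the settings used for that are not given in the sources used here.

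Sequence before the RefSeq start of each member is shown because Fam129a and Fam129c, as described next, differed between the media in opposite directions. Each printed stretch is a part of the 250 bases before the RefSeq start (GRCm38.p6) that lies outside annotated exons. The stretches are read 5′ to 3′ on the plus strand, at chr1:151571266-151571372 for Fam129a, chr2:32876002-32876113 for Fam129b and chr8:71597458-71597647 for Fam129c. That of Fam129a lies within the annotated span of the gene. Capitals mark matches to the motifs given after the sequences.
Fam129a: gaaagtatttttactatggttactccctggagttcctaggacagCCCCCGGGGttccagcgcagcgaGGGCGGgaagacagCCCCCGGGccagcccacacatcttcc
Fam129b: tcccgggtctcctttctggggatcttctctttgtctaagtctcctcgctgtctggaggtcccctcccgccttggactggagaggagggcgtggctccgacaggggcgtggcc
Fam129c: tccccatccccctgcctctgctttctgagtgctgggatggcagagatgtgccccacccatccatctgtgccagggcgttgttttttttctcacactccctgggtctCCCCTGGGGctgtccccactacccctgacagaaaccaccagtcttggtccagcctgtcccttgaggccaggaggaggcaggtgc

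The whole 250 bases of each member were searched on both strands for 5 motifs, of which CCCNNGGG and TGACGTCA read the same on either strand. The core of the combined C/EBP and ATF site, TGATGNAA, was found in 0 of the 3 members and in 3.45% of the 32851 RefSeq promoter windows. The cyclic AMP response element TGACGTCA was found in 0 members and in 1.55% of windows, and the TATA box TATAAA in 0 members and in 12.4%. The core of the site bound by the B cell factor EBF1, CCCNNGGG, was found in all 3 members and in 11.8% of windows. In Fam129a it starts 63, 62 and 26 bases before the RefSeq start, the first pair overlapping each other. In Fam129c it starts 144 and 143 bases before the start, again overlapping. The match of Fam129b, 216 bases before the start, lies in an annotated exon of the antisense gene Gm13523 and is not printed. The GC box GGGCGG was found in Fam129a, 40 bases before the start, and in 32.7% of windows. The Fam129a, Fam129b and Fam129c windows had 57.6%, 61.6% and 60.8% G and C, beside a median of 52.4% over all windows. A match is a run of letters, and sites outside these windows were not searched.

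Fam129a, the stress-inducible member, was the one with the largest difference between the media. In control medium its counts in replicates 1 to 4 were 322, 404, 312 and 390, or 19.1, 18.6, 20.2 and 22.01 normalised CPM. In OCM they were 1294, 1070, 1252 and 1068, or 65.8, 64.1, 67.2 and 62.3 normalised CPM. The lowest OCM culture lay far above the highest control culture, so the groups did not overlap. The means were 19.98 ± 1.51 and 64.9 ± 2.13 normalised CPM (SD, n = 4 per medium), for a log2 difference of 1.70 (SE 0.05) in the edgeR fit over all genes, or 3.26-fold with a 95% interval of 3.03 to 3.496. The log2 difference was 1.67 without control replicate 2 and 1.72 without OCM replicate 4. By the size of its log2 fold change it stood in place 9 of the 10729 genes. In bulk RNA, more transcript in each cell and more cells that express the gene cannot be told apart.

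Fam129b, the member tied to RAF and ERK signalling, was the least abundant of the family. Its counts were 34, 27, 21 and 30 in control medium and 57, 41, 36 and 44 in OCM. Its normalised CPM were 2.01, 1.25, 1.36 and 1.69 in control replicates 1 to 4, and 2.90, 2.45, 1.93 and 2.57 in OCM replicates 1 to 4. The groups overlapped, because control replicate 1 lay above OCM replicate 3. The means were 1.58 ± 0.35 and 2.46 ± 0.40 normalised CPM (SD, n = 4 per medium), for a log2 difference of 0.66 (SE 0.19), or 1.58-fold with a 95% interval of 1.21 to 2.06. Without control replicate 2 the log2 difference was 0.54, and without OCM replicate 4 it was 0.64. As a description only, its log2 difference was smaller than the 1.70 of Fam129a. With 290 counts over all samples, Fam129b is the member for which depth limits the estimate most.

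Fam129c, the B cell member, was lower in OCM. Its counts were 152, 161, 138 and 175 in control medium and 122, 119, 102 and 143 in OCM. As normalised CPM these were 9.002, 7.43, 8.93 and 9.88 against 6.21, 7.13, 5.48 and 8.34. The groups overlapped because OCM replicate 4, the highest of its medium, lay above control replicate 2, the lowest of its own. These are the cultures that stood apart over all genes, and their part in the result was not tested beyond leaving each out, which gave a log2 fold change of -0.46 without control replicate 2 and -0.48 without OCM replicate 4. The means were 8.81 ± 1.02 and 6.79 ± 1.24 normalised CPM (SD, n = 4 per medium), for a log2 difference of -0.37 (SE 0.11). Expressed as control over OCM this is 1.30-fold with a 95% interval of 1.10 to 1.53. Leaving out control replicate 4, OCM replicate 1 or OCM replicate 3 moved the log2 fold change to -0.31, -0.33 or -0.28.

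**Figure D1:**
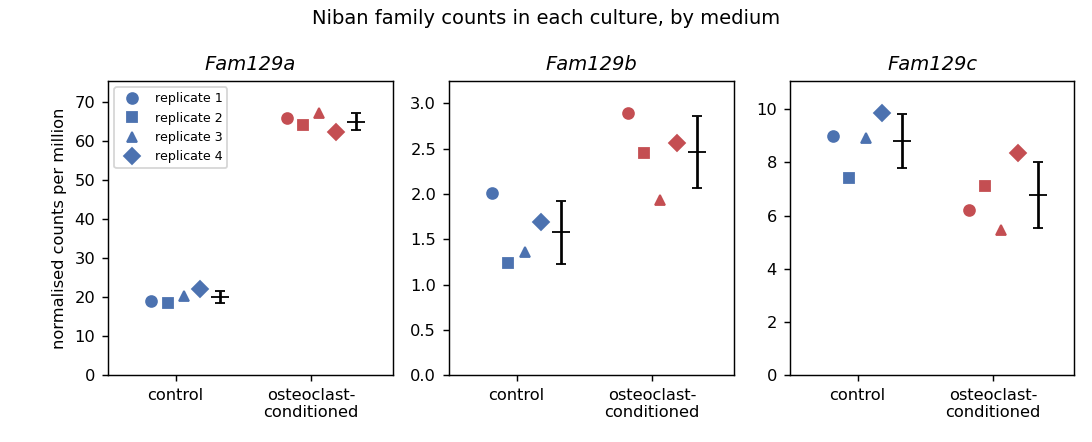
Normalised CPM (vertical axis, from 0, a separate scale for each gene) of Fam129a, Fam129b and Fam129c in each culture, by medium, with the mean and SD of 4 cultures beside the points. Fam129a separates the media without overlap (18.6 to 22.01 against 62.3 to 67.2), while the cultures of the 2 media overlap for Fam129b and Fam129c.

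In the edgeR quasi-likelihood fit, 3 of the 3 members had a Benjamini-Hochberg adjusted p under 0.05, where 30.5% of the 10729 genes tested did (3273 genes, 15.7% of the tested genes higher and 14.8% lower in OCM). The count was 2 of 3 without control replicate 4, OCM replicate 1 or OCM replicate 3, in each case without Fam129c. The samples of the media did not overlap in 1 of the 3 members, Fam129a, and in 28.2% of the genes tested. Nothing is read from these member counts, since the family was chosen with this comparison known. Scaling by library totals alone turned the balance of calls over all genes to 1383 higher and 2012 lower, against 1689 and 1584 with the main scaling, and left the 3 members in their directions (log2 fold changes of 1.68, 0.63 and -0.40).

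The spread between cultures of a medium differed among the members. For Fam129a the coefficient of variation (SD divided by the mean) was 7.53% in control medium, where counting alone would give 5.33%, and 3.29% in OCM, where counting would give 2.93%. For Fam129b it was 21.99% and 16.3%, against 19.2% and 15.2% from counting, close to the size of counting error. For Fam129c it was 11.5% and 18.2%, against 8.02% and 9.14%. The spread of Fam129c in OCM was thus the one that exceeded counting error most. Sequencing reads are not independent molecules, and these figures cover counting error only.

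Levels of different genes can be compared only per length, so normalised CPM were divided by the kilobases of annotated exon. In control medium Fam129a had 2.71 ± 0.20 normalised CPM per kb and Fam129c 2.47 ± 0.29, with ranges of 2.53 to 2.98 and 2.09 to 2.77 that overlap. Fam129b had 0.338 ± 0.074, below every value of the other members. In OCM the levels per kb were 8.79 ± 0.29 for Fam129a, 1.91 ± 0.35 for Fam129c and 0.527 ± 0.086 for Fam129b (SD, n = 4 per medium), and none of the 3 ranges overlapped. Fam129a came first and Fam129b last in all 8 cultures on this scale. The order of the first pair in control medium depended on the length used. Per kb of the longest coding transcript, Fam129c was at 3.89 ± 0.45 and Fam129a at 3.06 ± 0.23. With the exon bases shared with Pgls left out of the length, Fam129c was at 3.16 ± 0.37 against 2.71 ± 0.20 for Fam129a. All counts of Fam129c were kept there, so that value is too high if they include reads from the shared part. Which of Fam129a and Fam129c is the more abundant in control medium is therefore not settled by these counts. In OCM Fam129a was first and Fam129b last under each length.

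**Figure D2:**
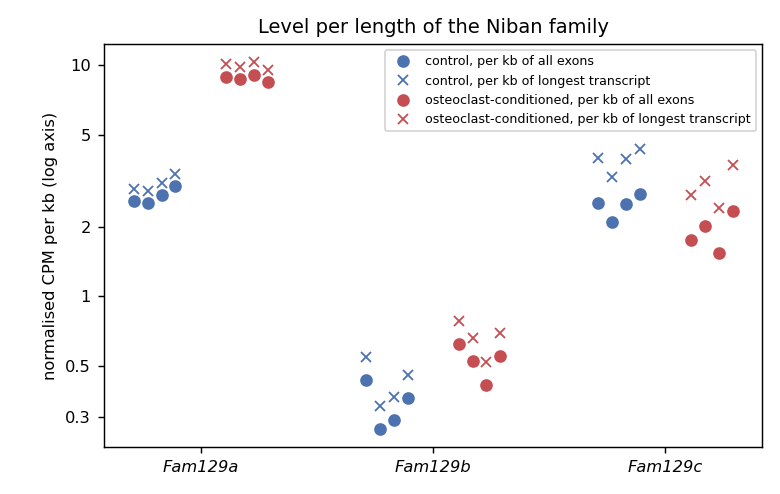
Normalised CPM per kb (log axis) of the 3 members in each culture, by medium, per kb of all exons (circles) and per kb of the longest coding transcript (crosses). In control medium Fam129a and Fam129c overlap per kb of all exons (2.53 to 2.98 and 2.09 to 2.77), and in OCM Fam129a stands apart from both others (8.44 to 9.11).

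The make-up of the family followed from these levels. Per kb of exon, Fam129a made up 46.6 to 51.8% of the family's level in control medium and 74.5 to 82.4% in OCM. The share of Fam129c was 42.8 to 45.6% in control medium and 13.9 to 20.7% in OCM. The share of Fam129b was 5.25 to 7.77% and 3.74 to 5.50%, so these ranges overlapped. The summed level of the family was 5.52 ± 0.51 normalised CPM per kb in control medium and 11.2 ± 0.12 in OCM (SD, n = 4 per medium). Within a culture the ratio of Fam129a to Fam129c per kb was 1.02 to 1.21 in control medium and 3.603 to 5.92 in OCM. With the other lengths Fam129c held the larger share in control medium. Per kb of the longest coding transcript, Fam129a made up 39.3 to 44.1% and Fam129c 50.7 to 53.4% in control medium, against 68.6 to 77.8% and 18.3 to 26.5% in OCM, and the ratio of Fam129a to Fam129c was 0.735 to 0.871 in control medium and 2.59 to 4.26 in OCM. With the shared exon bases left out of the length and all counts kept, the ratio was 0.799 to 0.947 in control medium and 2.82 to 4.63 in OCM.

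Genes tied to Niban1 by the ATF4 pathway were examined as a list of 42 ATF4 targets and amino acid response genes. Of 37 members tested, 35 were called higher in OCM and 0 lower, where 15.7% and 14.8% of all genes tested were called in these directions. The median log2 fold change of the list was 0.43, against -0.01 over all genes tested. The list, like the family, was chosen with earlier results of these data known, so its counts and the place of Fam129a are descriptions. Fam129a, which is not in the list, had a larger log2 fold change than 35 of the 37. The exceptions were Cebpb, a C/EBP transcription factor (2.46, SE 0.30, edgeR adjusted p = 1.89e-07, resting on 159 counts), and Aldh1l2, a mitochondrial folate enzyme (1.99, SE 0.08, edgeR adjusted p = 7.00e-18). Next below Fam129a came Trib3, a pseudokinase that dampens ATF4 output (1.58, SE 0.06, edgeR adjusted p = 5.38e-19), and Nupr1, a small stress-induced chromatin protein (1.202, SE 0.08, edgeR adjusted p = 8.53e-13). Asns, asparagine synthetase, went from 130 ± 2.78 to 182 ± 2.56 normalised CPM (SD, n = 4 per medium), for a log2 difference of 0.49. Ddit4, an inhibitor of mTORC1 signalling (0.03, SE 0.05), and Wars, the cytosolic tryptophan tRNA ligase (0.01, SE 0.03), were the 2 tested members not called. Ddit3, Slc7a11 and Slc7a5 are listed at 0 in every culture, and Stc2 and Fgf21 fell below the filter. A listing at 0 gives no measure of level, since G6pdx, an enzyme gene that most cells use, is also listed at 0.

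**Figure D3:**
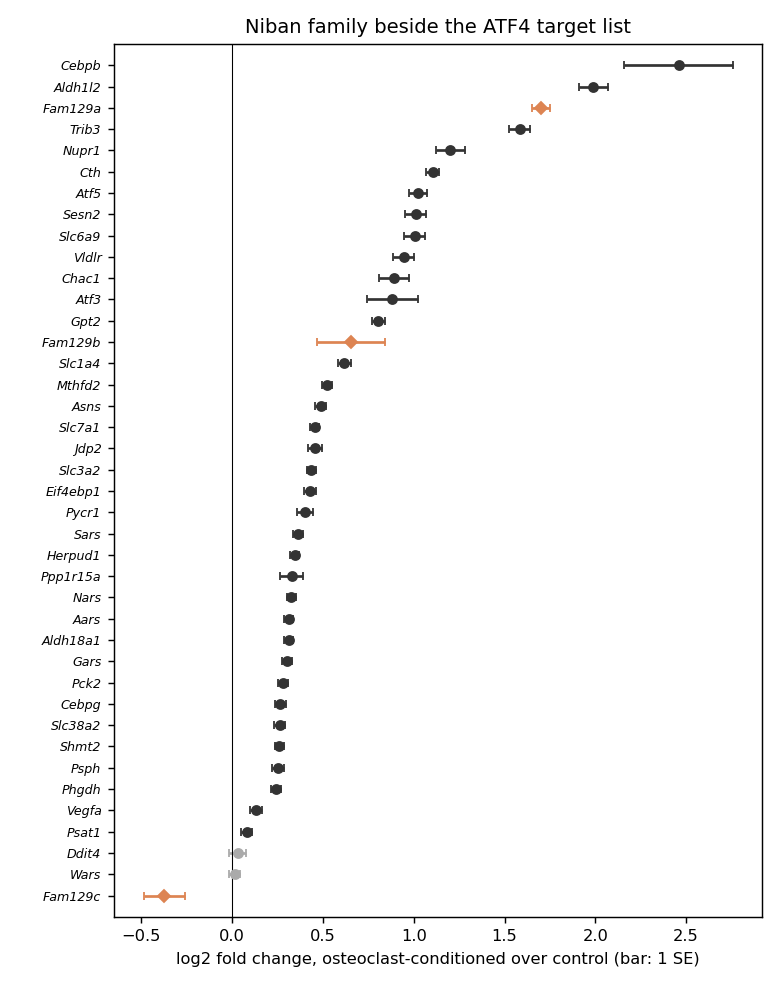
Log2 fold change (OCM over control, with 1 SE) of the 37 tested ATF4 target genes (circles, grey where not called) and the 3 Niban family members (diamonds). Fam129a (1.70) lies between Aldh1l2 (1.99) and Trib3 (1.58), Fam129b (0.66) lies among the list, and Fam129c (-0.37) lies below all of its members.

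The genes that set eIF2alpha phosphorylation, on which Niban1 has been reported to act, were called in both directions. Calls were higher for 5 of its 16 tested genes and lower for 3, beside 15.7% and 14.8% of all genes tested, and the list's median log2 fold change was -0.02. Ppp1r15a, the inducible subunit of the eIF2alpha phosphatase (0.33, SE 0.06, edgeR adjusted p = 0.000192), and Atf4 itself (0.23, SE 0.03, edgeR adjusted p = 3.04e-07) rose most. Atf4 went from 370 ± 15.6 to 432 ± 7.68 normalised CPM (SD, n = 4 per medium). Impact, which restrains the kinase GCN2, rose by 0.20 on the log2 scale, and Ppp1r15b and Gcn1l1 by 0.13 and 0.10. Eif2ak4, which encodes GCN2, fell by 0.17 on the log2 scale (SE 0.04, edgeR adjusted p = 0.000965), and Eif2b4, a subunit of the exchange factor eIF2B, by 0.13. Eif2s1, the eIF2alpha subunit, fell by 0.08 (edgeR adjusted p = 0.0327). Eif2ak3, the kinase PERK, had a log2 fold change of -0.02 (standard error 0.04, edgeR adjusted p = 0.804). With DESeq2, without OCM replicate 1 or without OCM replicate 3 only 1 gene of this list, in place of 3, was called lower. Eif2b4 also lost its call without control replicate 3 or 4, and Eif2s1 without control replicate 1 or 2 or without OCM replicate 4. Eif2s2, the beta subunit of eIF2, is listed at 0 in every culture, which gives no measure of its level.

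In the list of mTORC1, S6 kinase and 4E-BP genes, 7 of 20 tested genes were called higher and 3 lower, with a median log2 fold change of 0.04. Over all genes tested, 15.7% were called higher and 14.8% lower, so the share called lower was close to that of all genes. Eif4ebp1, the 4E-BP whose phosphorylation Niban1 has been reported to affect, rose from 95.4 ± 2.24 to 128 ± 3.45 normalised CPM (SD, n = 4 per medium), for a log2 difference of 0.43 (SE 0.03, edgeR adjusted p = 1.28e-11). Eif4ebp1 is also in the ATF4 list. Eif4e, the cap-binding protein that 4E-BPs hold, fell by 0.21 on the log2 scale (SE 0.03, edgeR adjusted p = 7.36e-07). Pdpk1, the kinase upstream of AKT, rose by 0.17. Rps6kb2, the second S6 kinase, fell by 0.19 with an edgeR adjusted p of 0.0412, and lost that call in 8 of 17 alternatives: with DESeq2, with limma-voom, without robust estimation, and when control replicate 1 or 3 or OCM replicate 1, 2 or 3 was left out. Rps6kb1, the main S6 kinase, had a log2 fold change of -0.06 (standard error 0.04, edgeR adjusted p = 0.202).

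In the list of nucleophosmin, MDM2 and p53 genes, 1 of 12 tested genes was called higher and 1 lower, together 16.7% of the list, below the 30.5% called over all genes tested. Bbc3, the apoptosis inducer PUMA, rose from 6.91 ± 0.41 to 10.3 ± 0.55 normalised CPM (SD, n = 4 per medium), for a log2 difference of 0.58 (SE 0.09, edgeR adjusted p = 5.85e-06). Mdm4, a relative of MDM2 that restrains p53, fell by 0.19 on the log2 scale (SE 0.03, edgeR adjusted p = 8.59e-05). The reported partners of Niban1 themselves had log2 fold changes of 0.02 for Npm1, -0.02 for Mdm2 and 0.02 for Trp53, each with an SE of 0.03 and with edgeR adjusted p of 0.650, 0.754 and 0.678. Without OCM replicate 2, a further gene of this list was called lower, making 2.

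Genes tied to Niban2 were examined in a pair of lists. In the RAF to ERK list, 4 of 25 tested genes were called higher and 4 lower, shares close to the 15.7% and 14.8% over all genes tested, and the median log2 fold change was -0.01. Dusp5 and Dusp4, phosphatases that act on ERK, rose by 0.36 (SE 0.04, edgeR adjusted p = 3.15e-08) and 0.35 (SE 0.06, edgeR adjusted p = 2.81e-05). Braf, the kinase upstream of ERK, rose from 65.6 ± 2.56 to 81.0 ± 1.11 normalised CPM (SD, n = 4 per medium), for a log2 difference of 0.30 (SE 0.04, edgeR adjusted p = 1.51e-07). Spry1 and Araf, a feedback inhibitor and a RAF kinase, each fell by 0.19, and Spry1 lost its call without control replicate 4 or OCM replicate 3. Only 2 genes of this list were called lower without control replicate 1, without OCM replicate 2 or without OCM replicate 3. In the KEAP1 and NRF2 list, 5 of 10 tested genes were called higher and 0 lower, beside 15.7% and 14.8% of all genes tested, with a median of 0.11. Hmox1, haem oxygenase, rose most (0.67, SE 0.11, edgeR adjusted p = 1.61e-05), followed by Sqstm1, an autophagy receptor that binds KEAP1 (0.20, SE 0.03, edgeR adjusted p = 3.63e-05). Nfe2l2, which encodes NRF2, rose by 0.13 (SE 0.03, edgeR adjusted p = 0.00266), and Keap1 had a log2 fold change of -0.01 (standard error 0.03, edgeR adjusted p = 0.818). Srxn1, G6pdx and Slc7a11 of this list are listed at 0. G6pdx encodes an enzyme that most cells use, so a listing at 0 gives no measure of the level of these genes.

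**Figure D4:**
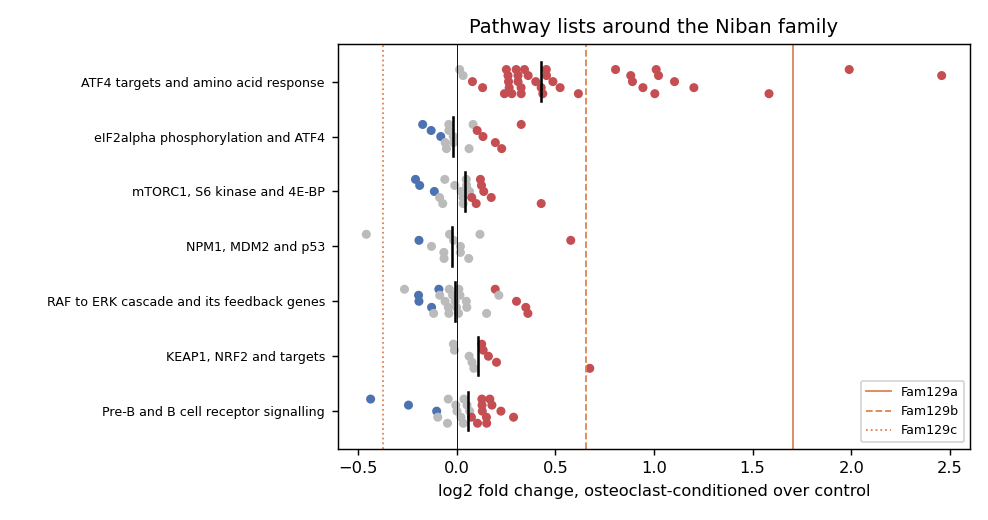
Log2 fold change (OCM over control) of each tested gene in the 7 pathway lists (points, red where called higher, blue where called lower, grey where not called), with each list's median (black bar) and the values of the 3 members (vertical lines). The median is 0.43 for the ATF4 targets and between -0.03 and 0.11 for the other 6 lists, and the line of Fam129a (1.70) lies to the right of every gene in those 6.

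Genes of pre-B and B cell receptor signalling, the setting in which Niban3 is found, were called in both directions. Of 24 tested genes, 11 were called higher, 3 lower and 10 in neither direction, beside 15.7% higher and 14.8% lower over all genes tested. The median log2 fold change of the list was 0.06. Blnk, the adaptor of the receptor's kinases, rose most (0.29, SE 0.03, edgeR adjusted p = 8.85e-09), followed by the transcription factor Irf4 (0.22, SE 0.03, edgeR adjusted p = 3.71e-06). Cd79a, a signalling chain of the receptor, rose from 515 ± 9.28 to 572 ± 11.2 normalised CPM (SD, n = 4 per medium), for a log2 difference of 0.15. Cd79b and the B lineage factor Pax5 each rose by 0.13. The genes called lower included Cd22 (-0.44, SE 0.03, edgeR adjusted p = 6.50e-12) and Cd72 (-0.25, SE 0.04, edgeR adjusted p = 2.21e-05), both inhibitory receptors of B cells. The log2 fold change of Fam129c, -0.37, lay between those of Cd22 and Cd72. Igll1, part of the surrogate light chain of pre-B cells, was at 462 ± 22.3 and 460.3 ± 9.001 normalised CPM, a difference smaller than the spread between cultures.

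The 3 listed protein-coding genes on each side of a member were compared with it for Fam129a and Fam129c. Of 6 tested neighbours of Fam129a, 0 were called higher and 3 lower, and of 5 tested neighbours of Fam129c, 0 were called higher and 3 lower, beside 15.7% and 14.8% of all genes tested. The 3 genes before Fam129a fell slightly: Rnf2, a Polycomb ubiquitin ligase, by 0.12 (SE 0.04, edgeR adjusted p = 0.0101), Trmt1l by 0.16 and Swt1 by 0.26 on the log2 scale. Rnf2 lost its call without OCM replicate 3. The 3 genes after it, Edem3, 1700025G04Rik and Tsen15, were not called, with log2 fold changes of 0.04, 0.03 and 0.08. With only 6 neighbours tested and 15.7% of all genes called higher, nothing is read from the 0 called higher. Lrsam1, the ubiquitin ligase gene that overlaps the end of Fam129b, had a log2 fold change of -0.08 (standard error 0.09, edgeR adjusted p = 0.538).

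Around Fam129c, 3 of 5 tested neighbours fell. Slc27a1, a fatty acid transporter, fell from 27.7 ± 0.99 to 21.1 ± 1.81 normalised CPM (SD, n = 4 per medium), for a log2 difference of -0.39 (SE 0.06, edgeR adjusted p = 8.20e-06). Unc13a, a vesicle priming factor, fell by 0.38 on the log2 scale (SE 0.09, edgeR adjusted p = 0.00254). Jak3, the kinase of the common gamma chain cytokine receptors, fell by 0.11 (SE 0.03, edgeR adjusted p = 0.0174) and lost its call when control replicate 1 or 4 or OCM replicate 1 or 2 was left out. The nearest gene on each side was not called. Pgls, the pentose phosphate enzyme whose exons overlap Fam129c, was at 185 ± 3.32 and 188 ± 7.30 normalised CPM (log2 fold change 0.02, SE 0.03), and Colgalt1, a collagen galactosyltransferase, was at 217 ± 1.89 and 222 ± 3.10 (0.04, SE 0.03). The means of Fam129c, 8.81 and 6.79 normalised CPM, lie closer together than the SD of Pgls in either medium. The part of shared reads in the lower level of Fam129c was not tested. Nxnl1, with 11 counts in all, was not tested.

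**Figure D5:**
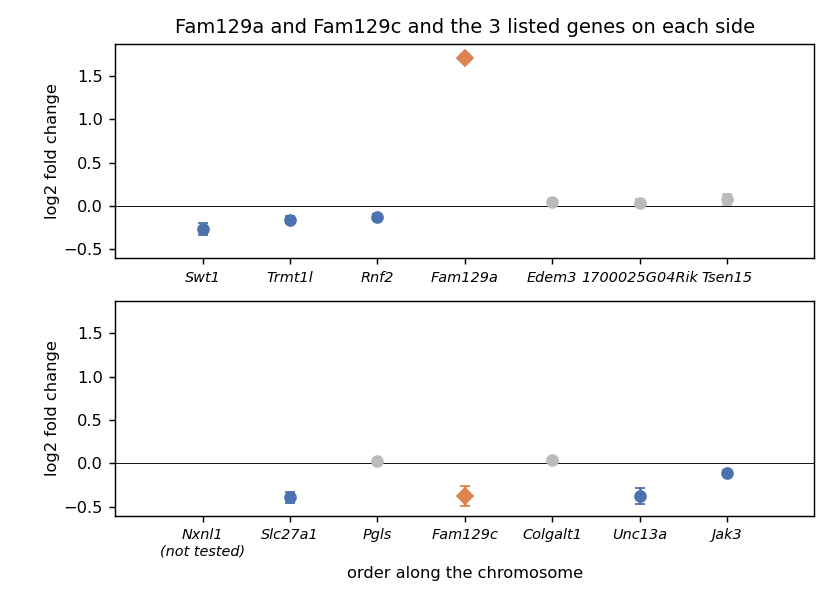
Log2 fold change (OCM over control, with 1 SE) of Fam129a and Fam129c (orange diamonds) and of the 3 listed protein-coding genes on each side, in chromosomal order (blue, called lower; grey, not called). Fam129a (1.70) has a higher value than each of the neighbours shown, and Slc27a1 (-0.39) and Unc13a (-0.38) near Fam129c have values close to its own (-0.37).

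The genes whose pattern over the 8 cultures was most like that of each member were found by Pearson correlation of log2 normalised CPM, over the tested genes with a mean of at least 5 normalised CPM. The points share libraries and the difference between the media, so the values describe likeness only. For Fam129a the highest were Vldlr (r = 0.998), Asns (0.997), Sars (0.997), Wdfy4 (0.996) and P2ry10 (0.995), and 374 of 9031 genes reached 0.95. Vldlr, Asns and Sars are in the ATF4 list. For Fam129b they were Pigk (0.966), Klhl14 (0.958), Adgre5 (0.953), Kdsr (0.953) and Rnf220 (0.952), and 5 of 9032 genes reached 0.95. For Fam129c they were Fbxo10 (0.988), Zc3h8 (0.984), Supt20 (0.980), Vps16 (0.973) and Clk1 (0.973), and 17 of 9031 reached 0.95. Many genes thus matched Fam129a, whose pattern is mostly the step between the media, and few matched the members whose cultures overlap.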

How the data were processed

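RNA of 8 PER-M60 cultures was sequenced (RNeasy Plus Mini extraction and SureSelect HS2 libraries, per the labels' protocols). The submitters' processing notes name STAR 2.7.5a, featureCounts 2.0.1 and mm10, without settings. Annotation, strand setting and use of molecular barcodes are not given in the sources used here. The deposited values are raw counts per Ensembl gene ID, not normalized by the authors. All 8 columns were matched to samples by description, 0 were left over, and groups came from the titles. Pairs of samples within a medium differed by 1.38 to 5.26 in chi-square per degree of freedom, so every sample was kept as a replicate. P-values measure the spread between these samples, which may be technical.

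Symbols, positions and exon lengths came from GENCODE M21 (GRCm38), which matched 21817 of 21859 IDs. Promoters of 3 of 3 members came from RefSeq (GRCm38.p6). The test used edgeR 4.0.16 under R 4.3.3 (filterByExpr, TMM, robust glmQLFit and glmQLFTest, Benjamini-Hochberg adjustment over all 10729 genes, threshold 0.05). SE is the absolute log2 fold change over the square root of F, and log2 CPM used a prior count of 2. The fit was tested on simulated counts. Members and lists were chosen with earlier results of these data known. Named genes were the members, a set of 20 pathway genes given whatever their result, up to 4 called genes per list by size and 2 against the list's direction, the neighbours and the most alike genes. Alternatives were other scalings (DESeq2 size factors, totals, upper quartile), filters, DESeq2 1.42.0, limma-voom (limma 3.58.1), no robust estimation, a replicate block, other lengths, and leaving out each sample. Results of some named genes are not reported here.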

Additional observations from a re-analysis of the deposited data

Results flagged for a closer look

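Among the genes named, each medium's most extreme culture was examined with Dixon's ratio, which divides the distance from the nearest other culture by the range of all 4. Of 170 groups of 4 cultures, 3 were above the 95% critical value, where chance gives about 8.5. None concerned a Niban family member. Bbc3 was at 11.1 normalised CPM in OCM replicate 4, against 9.99 to 10.1 in the other cultures of that medium (ratio 0.885). Igll1 was at 474 in OCM replicate 4, against 455.6 to 455.9 (0.979). Supt20 was at 77.5 in control replicate 2, against 81.3 to 82.0 (0.848).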

How the results depend on the processing

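Over 17 alternatives for Fam129a and Fam129c and 16 for Fam129b (which has under 50 counts per sample on average and so drops out of that filter), the direction of each member was kept. Leaving out 1 sample gave log2 fold changes of 1.67 to 1.76, 0.54 to 0.79 and -0.48 to -0.28 for Fam129a, Fam129b and Fam129c. These are descriptions, since the family was chosen with the comparison known. The number of called genes over the whole table ran from 2635 to 3578 when 1 sample was left out.

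When replicate numbers entered as a block (the replicate block), 3446 genes were called, 3236 of them also called in the same direction without it, and the members' log2 fold changes were 1.70, 0.65 and -0.37. The numbers did not pair the samples: deviations of same-numbered samples correlated from -0.05 to 0.14, 1 of 4 pairs passed 0.1, and 3 of 8 samples correlated best with their own number.

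DESeq2 called 1 gene of the eIF2alpha list lower in place of 3. Leave-one-out gave 1 to 3 genes called lower in that list, 1 to 2 in the p53 list and 2 to 4 in the RAF to ERK list, where scaling by library totals gave 6. The log2 ratio of Fam129a to Fam129c per kb in control medium, 0.13 with all exons, was -0.34 with the longest transcript and -0.22 without shared exon bases, a length chosen after seeing the data. In OCM it was 2.22, 1.75 and 1.87. For Fam129c over Fam129b the ratios were 2.89, 3.21 and 3.23 in control and 1.85, 2.17 and 2.19 in OCM. These shifts follow from the lengths alone. Of 81 named genes, the 3 members not among them, 10 changed their call under at least 1 alternative and 0 reversed.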

Other observations

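After the mean of each medium was removed, the deviations of log2 normalised CPM over the 8 cultures had a Pearson r of 0.03 between Fam129a and Fam129b, 0.08 between Fam129a and Fam129c and 0.54 between Fam129b and Fam129c. These values are descriptions of 8 libraries. By the same measure the genes most like Fam129a were Tmem86a (0.985), Prr5 (0.956) and Kank2 (0.945), those most like Fam129b were Tmem11 (0.974), Vps33b (0.955) and Mocs2 (0.952), and those most like Fam129c were Rbak (0.986), Ess2 (0.985) and Fbxo10 (0.977). Kank2, a scaffold protein of cell adhesion sites, had a log2 fold change of -0.41 (SE 0.07), opposite to that of Fam129a.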
